A study of Mus musculus with 18 samples.

Results

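The levels of 4 genes of the C/EBP family and 6 genes tied to fat cell fate and lipid storage were followed in C2C12 myotubes, the multinucleate muscle fibres that form when this immortalised mouse myoblast line is kept in low serum. The 10 genes were picked by name: Cebpa, Cebpb, Cebpd and Cebpg, the nuclear receptor gene Pparg, and Adipoq, Fabp4, Cfd, Cd36 and Dgat2. They were chosen with earlier results of these data known. All 10 were found by Ensembl identifier among the 48795 gene rows of the expression table. The table covers 18 libraries in 6 groups of 3. All cells had been differentiated for 5 days in 2% horse serum. Under the glucocorticoid dexamethasone, which causes muscle wasting and is used to model it in culture, there were 3 groups. The DEX group had 12 h of 0.1% DMSO, the solvent, and then 24 h of 200 µM dexamethasone. The DEX_gRc10 and DEX_gRc20 groups had 12 h of ginsenoside Rc, a saponin of ginseng, at 10 or 20 µM before the 24 h of dexamethasone. Without dexamethasone there were also 3 groups. The control group had 0.1% DMSO for 36 h, and the gRc10 and gRc20 groups had ginsenoside Rc at 10 or 20 µM for 36 h. The labels name a single batch for all 18 libraries and do not say whether the replicates of a group were separate cultures, so p-values measure the spread between libraries, which may be technical.

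C/EBP proteins are leucine zipper transcription factors that bind DNA as dimers. In the textbook cascade of fat cell formation, C/EBPβ and C/EBPδ appear first after hormonal induction, a step for which dexamethasone is a standard ingredient, and they switch on C/EBPα and PPARγ, which keep each other on and drive the genes of the mature fat cell. C/EBPγ lacks a transactivation domain and acts largely as a dimer partner. In muscle, glucocorticoid treatment is known to raise C/EBPβ and C/EBPδ, and CD36 and DGAT2 also serve the muscle fibre's own fatty acid uptake and triglyceride synthesis.

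Upstream sequence is shown for Cebpa, Cebpg and Pparg, because Cebpa and Cebpg are neighbours on chromosome 7 with different responses and because Pparg is the textbook target of C/EBP proteins. The table of RefSeq promoters used here (GRCm38.p6) held 9 start sites of 7 of the 10 genes, and the 250 bases before each start were searched on both strands. The upstream sequences of Cebpd, Fabp4 and Dgat2 were not analysed here. TTGCNNAA, a C/EBP core, TTGCG, an arm of the C/EBP palindrome, TGTTCT, an arm of the glucocorticoid receptor element, and TATAAA, the TATA box, were searched, and TTGCG can overlap a TTGCNNAA match. Capitals mark TTGCG 185 to 181 bases and TATAAA 30 to 25 bases before the Cebpa start (chr7:35119043-35119292, plus strand), none before the Cebpg start (chr7:35056567-35056816, minus strand), and matches to TTGCNNAA 215 to 208 bases and, on the opposite strand, 16 to 9 bases before the most downstream of the 3 Pparg starts in the table (chr6:115421816-115422065, plus strand).
Cebpa: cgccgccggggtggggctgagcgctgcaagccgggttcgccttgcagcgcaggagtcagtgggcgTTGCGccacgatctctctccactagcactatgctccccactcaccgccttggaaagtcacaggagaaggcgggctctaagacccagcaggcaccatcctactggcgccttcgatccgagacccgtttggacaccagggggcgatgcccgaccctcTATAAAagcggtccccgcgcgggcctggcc
Cebpg: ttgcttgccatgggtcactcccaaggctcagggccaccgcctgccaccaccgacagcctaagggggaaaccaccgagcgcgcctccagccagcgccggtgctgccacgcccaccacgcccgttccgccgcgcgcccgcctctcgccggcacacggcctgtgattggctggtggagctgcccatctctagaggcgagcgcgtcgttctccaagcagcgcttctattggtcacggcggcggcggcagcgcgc
Pparg: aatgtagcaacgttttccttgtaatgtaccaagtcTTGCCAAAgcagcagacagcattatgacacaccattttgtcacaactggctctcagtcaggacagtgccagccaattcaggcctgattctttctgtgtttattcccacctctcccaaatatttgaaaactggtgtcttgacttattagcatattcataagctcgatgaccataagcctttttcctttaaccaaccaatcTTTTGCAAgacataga
Of 32851 mouse windows of this length, 9.56% held TTGCNNAA, 14.5% held TTGCG, 12.4% held TATAAA and 16.1% held TGTTCT. Among the 9 windows of these genes, TTGCNNAA was found in the 1 Pparg window shown, TTGCG in the Cebpa window, TATAAA in the Cebpa window and another Pparg window, and TGTTCT in 0. A match describes letters in the window and not a bound site.

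The libraries held 32350889 to 45388609 expected counts, the read counts that RSEM estimates per gene, and 15436 genes passed a filter on low counts. Levels are given as CPM, counts scaled to a common library total, with TMM factors that correct for differences in RNA composition. The first principal component held 70.9% of the variance and set all 9 libraries with dexamethasone apart from the 9 without. Replicate 2 of gRc20 stood apart on the second component (5.37% of the variance), and mitochondrial genes took 2.79% of its counts, against 1.26% to 1.91% in the other libraries. The mitochondrial share also moved with dexamethasone, at 1.68% to 1.82% in DEX and 1.26% to 1.38% in control, and its part in the results was not tested. Myotube markers were present in every group, with summed levels of 21000 to 21900 CPM in DEX and 20200 to 20400 CPM in control. Single markers shifted beneath that sum. Of 12 tested, 7 were higher in DEX, Myh8 among them by 1.44 on the log2 scale. Another 3 were lower, Myh3 among them with a log2 fold change of -0.90. Over all genes tested, 20.6% were higher in DEX and 23.2% were lower, all at an adjusted p below 0.05 in edgeR. All 10 of the listed known glucocorticoid targets rose in DEX. Fkbp5 among them was at 428 ± 12.8 CPM in DEX and 23.8 ± 0.996 CPM in control (SD, n = 3 each). That list was chosen with earlier results of these data known, so the count is a description.

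Of the 10 genes, 8 passed the low-count filter, and 7 of these were higher in DEX than in control at an adjusted p below 0.05 in edgeR's quasi-likelihood test with Benjamini-Hochberg adjustment over all 15436 genes. Across all genes tested, 43.8% passed in this comparison, 20.6% as higher and 23.2% as lower. The same 7, Cebpa, Cebpb, Cebpd, Pparg, Fabp4, Cd36 and Dgat2, were also higher in DEX_gRc10 than in gRc10, where 44.2% of all genes passed, 21.1% as higher and 23% as lower. They were higher again in DEX_gRc20 than in gRc20, where 48.9% passed, 23.5% as higher and 25.4% as lower. These 3 comparisons share no library. DEX_gRc10 and DEX_gRc20 had 12 h of ginsenoside Rc before dexamethasone, whereas gRc10 and gRc20 had 36 h of it. Exposure to ginsenoside Rc may thus differ between the arms, and such a difference cannot be told apart from dexamethasone. Fabp4 passed the filter only through its level in the libraries with dexamethasone, and the 10 genes were chosen with earlier results of these data known. The count over the genes that passed is therefore a description. Without composition scaling the split over all genes moved to 2368 higher and 4393 lower in DEX, against 3177 higher and 3578 lower with TMM, and to 2449 higher and 4374 lower in DEX_gRc10 against gRc10, where TMM gave 3264 higher and 3556 lower.

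Cebpa, which encodes the factor that maintains the differentiated fat cell state, had the highest fitted fold change of the 4 C/EBP genes under dexamethasone. It had 69.0, 64.8 and 66.6 CPM in the DEX libraries and 13.1, 14.1 and 12.3 CPM in the control libraries. In DEX_gRc10 it had 67.9, 61.5 and 62.9 CPM, against 13.0, 14.8 and 12.8 CPM in gRc10. In DEX_gRc20 it had 67.0, 70.5 and 60.3 CPM, against 12.9, 13.1 and 13.8 CPM in gRc20. The 9 libraries with dexamethasone were all above the 9 without, with no overlap. The fitted log2 fold change of DEX over control was 2.34 ± 0.07 (SE), a 5.06-fold difference (adjusted p = 1.66e-14, edgeR), and it was 2.24 with 10 µM and 2.32 with 20 µM ginsenoside Rc in both arms. The gene is a single-exon gene on chromosome 7 (GRCm38, 35119293 to 35121928, plus strand), and the annotated antisense gene across it had at most 4 counts in any library.

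Cebpd, which encodes C/EBPδ, an early factor of the cascade, had 45.6, 42.1 and 45.3 CPM in DEX, against 12.1, 12.2 and 10.9 CPM in control. The level was 43.5, 43.5 and 50.7 CPM in DEX_gRc10, against 10.9, 12.2 and 11.2 CPM in gRc10. It was 46.9, 46.6 and 41.8 CPM in DEX_gRc20, against 13.6, 10.3 and 12.2 CPM in gRc20. Again no library with dexamethasone reached down to any library without it. The log2 fold change was 1.91 ± 0.09 for DEX over control (adjusted p = 6.76e-12, edgeR), 2.00 for DEX_gRc10 over gRc10 and 1.90 for DEX_gRc20 over gRc20. Its exons on chromosome 16 (15887286 to 15891031, plus strand) overlap those of Spidr, a DNA repair gene on the opposite strand, and 100% of the Cebpd expected counts were not whole numbers, as RSEM gives where a read could belong to more than 1 feature. Spidr went the other way, at 9.07 ± 1.11 CPM in DEX and 11.8 ± 0.444 CPM in control (SD, n = 3 each), with a log2 fold change of -0.38 (adjusted p = 0.00101, edgeR).

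Cebpb, which encodes C/EBPβ, the other early factor and a known mediator of muscle wasting, rose with a wide spread between replicates. It had 55.0, 68.9 and 65.3 CPM in DEX, against 34.7, 24.8 and 28.2 CPM in control. In DEX_gRc10 the values were 57.6, 52.6 and 95.2 CPM, against 25.3, 25.9 and 24.1 CPM in gRc10. In DEX_gRc20 they were 55.8, 57.7 and 83.5 CPM, against 18.8, 34.9 and 23.8 CPM in gRc20. Replicate 3 was the highest in both DEX_gRc10 and DEX_gRc20, replicate 2 was the highest in gRc20, and the 9 libraries with dexamethasone still lay above the 9 without. The log2 fold change was 1.11 ± 0.25 for DEX over control (adjusted p = 0.00207, edgeR), 1.45 ± 0.25 for DEX_gRc10 over gRc10 (adjusted p = 0.000253) and 1.35 ± 0.25 for DEX_gRc20 over gRc20 (adjusted p = 0.000415). The coefficient of variation within a group had a median of 20.3% over the 6 groups and reached 34.0% in DEX_gRc10, against medians of 5.87% for Cebpa, 6.34% for Cebpd and 5.25% for Cebpg. Cebpb on chromosome 2 (167688915 to 167690418, plus strand) shares exon sequence with Tmem189 on the opposite strand, and 55.6% of its expected counts were not whole. Tmem189 was also higher, at 222 ± 7.22 CPM in DEX and 146 ± 1.24 CPM in control (SD, n = 3 each; log2 fold change 0.60, adjusted p = 9.47e-08, edgeR), and its part in the Cebpb values was not tested.

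Cebpg, the dimer partner without a transactivation domain, did not pass the test in any of the 3 comparisons. It had 31.6, 29.4 and 32.0 CPM in DEX and 33.9, 34.5 and 35.1 CPM in control, so every DEX library was slightly below every control library. The log2 fold change was -0.15 (95% interval -0.30 to -0.01), with an adjusted p of 0.0753 and an unadjusted p of 0.0356 in edgeR. This call depends on the fit: the adjusted p was 0.0141 when only the DEX and control libraries were fitted, 0.0216 without composition scaling and 0.0236 without replicate 2 of gRc20 in the shared fit, with Cebpg lower in DEX each time. With ginsenoside Rc in both arms the differences were smaller, at -0.04 (interval -0.18 to 0.11) for DEX_gRc10 over gRc10 and 0.04 (interval -0.10 to 0.19) for DEX_gRc20 over gRc20, and the libraries overlapped. Cebpg lies 62.7 kb from Cebpa (35046422 to 35056573 on chromosome 7, minus strand), which rose 5.06-fold. Pepd, on the other side of Cebpg at 1.7 kb, fell by 0.44 on the log2 scale in DEX (adjusted p = 0.00556, edgeR).

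**Figure D1:**
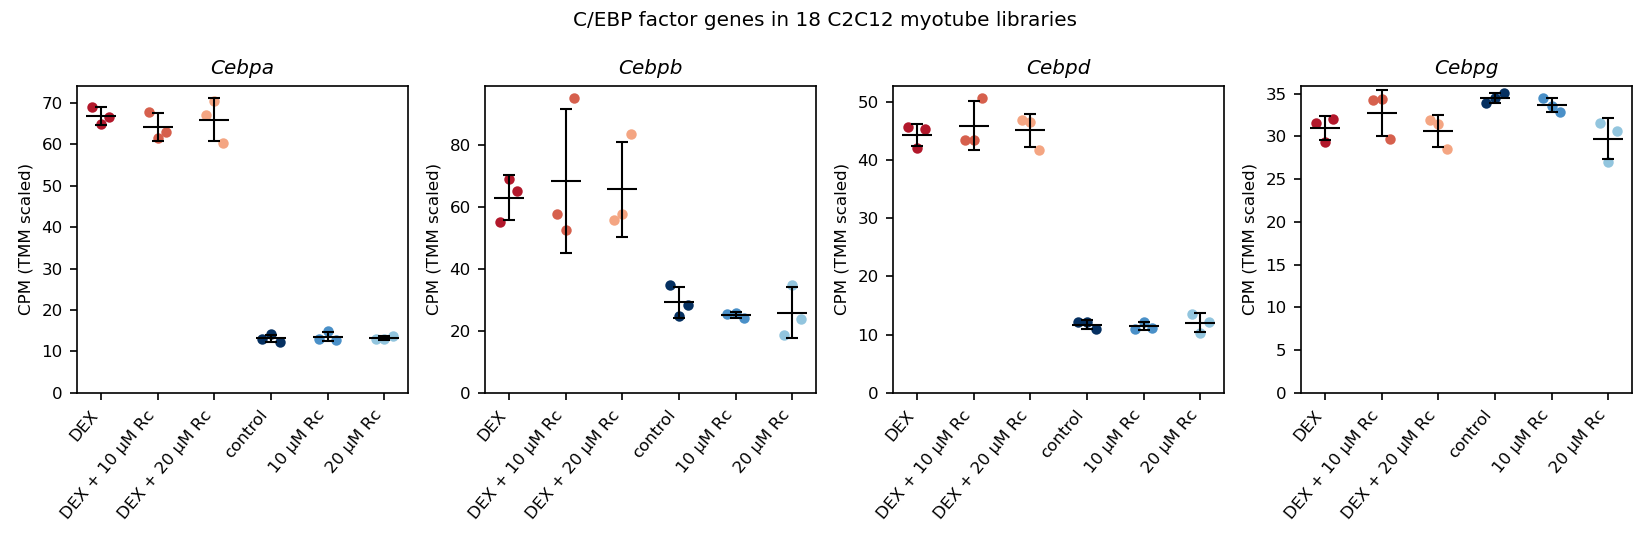
Level of each of the 4 C/EBP genes (y axis, CPM scaled by TMM, from 0) in the 6 groups (x axis, Rc is ginsenoside Rc). Points are libraries, the wide bar is the mean and the whiskers are 1 SD (n = 3). Cebpa, Cebpb and Cebpd are higher in all 9 libraries with dexamethasone, Cebpb reaches 95.2 CPM in a DEX_gRc10 library, and Cebpg stays between 27.0 and 35.1 CPM.

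Levels per kilobase of exon can be set side by side between genes. The length is that of all annotated exons merged, so shares and order depend on the annotation. For Cebpb and Cebpd they also depend on how overlapping reads were assigned. The 4 C/EBP genes summed to 84.6 ± 3.52 CPM per kb in DEX and 33.7 ± 3.19 CPM per kb in control (SD, n = 3 each). Cebpb had the largest share of the sum in both groups, at 49.5 ± 3.72% in DEX and 57.4 ± 4.49% in control. Cebpa made up 30.0 ± 2.21% in DEX and 14.9 ± 1.92% in control. The order below Cebpb therefore differed between the groups. In DEX it ran Cebpa at 25.3 CPM per kb, Cebpd at 11.8 and Cebpg at 5.51 CPM per kb, whereas in control it ran Cebpg at 6.13, Cebpa at 5.00 and Cebpd at 3.14 CPM per kb. The ratio of Cebpa to Cebpg per length was 4.60 ± 0.136 in DEX and 0.816 ± 0.0608 in control, and its ranges, 4.44 to 4.70 and 0.75 to 0.87, did not overlap. The Cebpg share was 6.53 ± 0.483% in DEX and 18.3 ± 1.89% in control. The levels are of mRNA, and dimer composition was not measured.

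**Figure D2:**
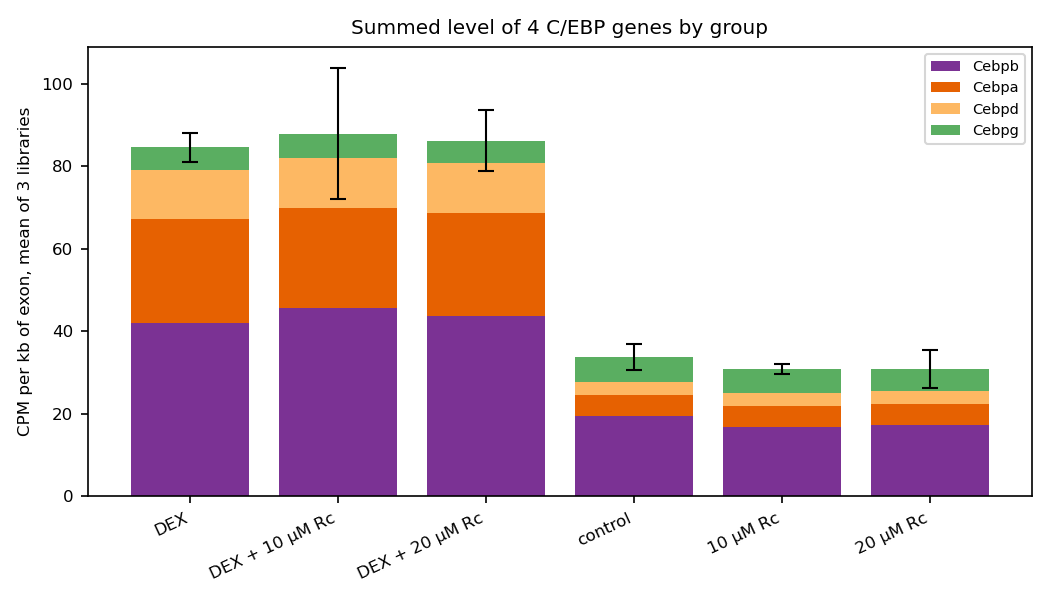
Summed level of the 4 C/EBP genes (y axis, mean CPM per kb of exon over 3 libraries, from 0) in the 6 groups (x axis), stacked by gene. The whiskers are 1 SD of the sum over 3 libraries. The sum is 84.6 in DEX and 33.7 in control, the Cebpa layer is 25.3 in DEX and 5.00 in control, and the Cebpg layer is 5.51 in DEX and 6.13 in control.

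Pparg, the gene of the receptor that directs fat cell formation, rose at a low level. It had 6.34, 5.50 and 6.97 CPM in DEX, against 3.71, 3.89 and 3.88 CPM in control. In DEX_gRc10 it had 6.94, 7.02 and 6.95 CPM, against 4.11, 3.80 and 4.05 CPM in gRc10. In DEX_gRc20 it had 7.25, 6.38 and 7.15 CPM, against 3.97, 5.16 and 3.52 CPM in gRc20. The groups did not overlap in any of these pairs, and the highest library without dexamethasone, at 5.16 CPM, was replicate 2 of gRc20. The log2 fold change of DEX over control was 0.71 ± 0.12, or 1.64-fold (adjusted p = 6.17e-05, edgeR). Per length, Pparg averaged 2.12 CPM per kb in DEX, against 25.3 CPM per kb for Cebpa in the same libraries. Gene-level counts do not separate the Pparg isoforms that start at different sites.

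Cd36, which encodes the fatty acid uptake receptor, was the most abundant per length of the 6 genes of fat cell fate and lipid storage chosen here, at 17.6 ± 2.02 CPM per kb in DEX and 9.64 ± 0.249 CPM per kb in control (SD, n = 3 each). It had 71.6, 58.8 and 59.2 CPM in DEX, against 33.6, 35.4 and 34.8 CPM in control. Dgat2, which encodes an enzyme of the last step of triglyceride synthesis, had 5.20, 5.87 and 6.20 CPM in DEX, against 2.91, 3.25 and 3.55 CPM in control. Neither gene's groups overlapped. The log2 fold changes were 0.87 ± 0.07 for Cd36 (adjusted p = 2.05e-08) and 0.83 ± 0.11 for Dgat2 (adjusted p = 5.7e-06, edgeR). They were 0.87 and 0.77 for DEX_gRc10 over gRc10 and 1.01 and 0.73 for DEX_gRc20 over gRc20. In bulk RNA, more RNA per cell and more cells of a type that expresses a gene cannot be told apart, for these and for the other genes.

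Fabp4, which encodes the fatty acid carrier of fat cells and of some endothelial cells and macrophages, was nearly silent without dexamethasone. It had 170, 137 and 152 counts in the DEX libraries, against 0, 1 and 0 in the control libraries. It had 166, 127 and 145 counts in DEX_gRc10, against 1, 1 and 1 in gRc10, and 134, 153 and 133 in DEX_gRc20, against 4, 0 and 1 in gRc20. The level with dexamethasone remained modest, at 3.68 ± 0.485 CPM in DEX, 3.44 ± 0.302 CPM in DEX_gRc10 and 3.36 ± 0.0819 CPM in DEX_gRc20 (SD, n = 3 each). With so few reads without dexamethasone the size of the change is loosely bounded. The depth-adjusted ratio of summed counts was 448 for DEX over control (exact 95% interval 80.1 to 17700, for counting error only), 134 (45.6 to 653) for DEX_gRc10 over gRc10 and 80.9 (34.4 to 250) for DEX_gRc20 over gRc20. The lone control read was in replicate 2; without that library Fabp4 was at least 94.1-fold higher in DEX, against a floor of 3 counts over the control group. Replicate 1 of gRc20 held 4 of the 5 reads of its group, and without it the ratio was 260. The adjusted p was 6.06e-12 for DEX against control in edgeR, for a gene that passed the low-count filter only through the libraries with dexamethasone. Fabp5, its paralogue 187.5 kb away, did not pass the test (log2 fold change -0.15, adjusted p = 0.577, edgeR).

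Adipoq, the adiponectin gene, and Cfd, the adipsin gene, both secreted products of mature fat cells, stayed at the limit of detection. Adipoq had 1, 1 and 1 counts in DEX and 0, 0 and 1 in control, and no library of any group had more than 2. Cfd had 0 counts in all 18 libraries. A count of 0 allows a level of up to 0.0662 to 0.0907 CPM, depending on the library, so no fold change is given for either gene. Of 10 markers of the mature adipocyte, 7 (Adipoq, Plin1, Cidec, Lep, Retn, Adig and Ucp1) had at most 3 counts in every library, and the summed level of the 10 was 7.67 to 9.29 CPM in DEX and 6.00 to 6.31 CPM in control. Most of that sum was Lipe, a lipase that muscle also uses, at 8.11 ± 0.777 CPM in DEX and 6.01 ± 0.214 CPM in control (SD, n = 3 each). Lipe and Cidea, a lipid droplet gene, were the 2 that were tested, and Lipe was higher in DEX (log2 fold change 0.43, adjusted p = 0.000337, edgeR). Cidea was at 0.217 ± 0.0664 CPM in DEX and 0.0815 ± 0.00626 CPM in control (SD, n = 3 each; adjusted p = 0.0628, edgeR). Both were higher in DEX_gRc10 than in gRc10 and in DEX_gRc20 than in gRc20, with adjusted p-values of 0.0199 and 0.0127 for Cidea (edgeR). Cidea had at most 0.165 CPM in any library without dexamethasone. It passed the low-count filter only through libraries with dexamethasone, so its values are a description.

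**Figure D3:**
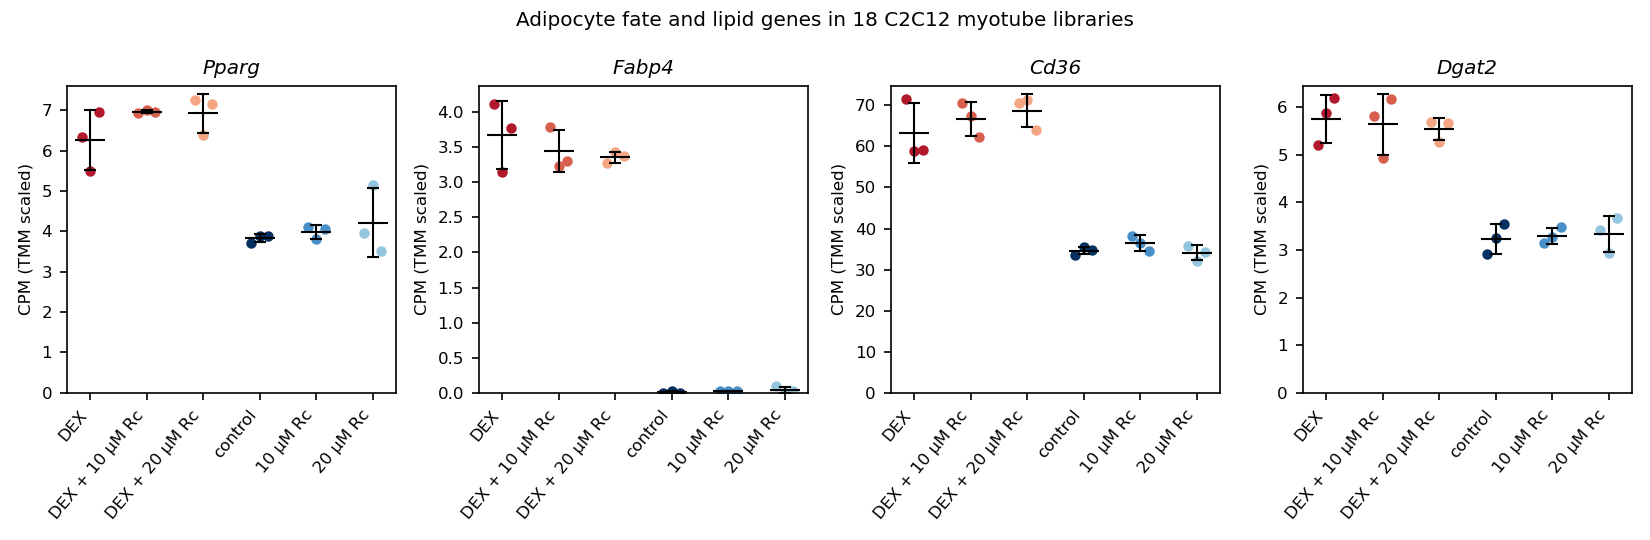
Level of Pparg, Fabp4, Cd36 and Dgat2 (y axis, CPM scaled by TMM, from 0, a scale of its own per gene) in the 6 groups (x axis). Points are libraries, the wide bar is the mean and the whiskers are 1 SD (n = 3). All 4 are higher with dexamethasone, and Fabp4 lies near 0 in the 9 libraries without it.

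Markers of other cell types and states were read beside these genes. A list's name does not show that such cells were present in cultures of this myoblast line. The shares over all genes tested were 43.8% passing, 20.6% as higher and 23.2% as lower. Of 10 markers of the undifferentiated myoblast, 9 were tested, 3 were higher in DEX, 5 were lower and 1 did not pass, with summed levels of 406 to 437 CPM in DEX and 431 to 445 CPM in control. Myf5, Id3 and Id1 were higher by 1.14, 1.24 and 0.77 on the log2 scale, and Pax7, Hes1 and Cdkn1c fell by 0.95, 1.13 and 0.94. Of 10 fibro-adipogenic progenitor markers, 9 were tested, 3 were higher in DEX, 4 were lower and 2 did not pass, and their summed level was 598 to 640 CPM in DEX and 613 to 652 CPM in control. Pdgfra, Ly6a and Cd55 were the 3 that were higher, and Pi16, Pdgfrb and Dcn were among the lower ones. Endothelial markers summed to 0.347 to 0.645 CPM in DEX and 0.839 to 1.23 CPM in control, with Pecam1, Tie1 and Emcn at no more than 3 counts in any library. Of these 7 markers, 2 were tested and 0 passed. Macrophage markers summed to 2.33 to 2.71 CPM in DEX and 2.43 to 3.04 CPM in control, with Ptprc and Adgre1 at no more than 3 counts. Of the 7 macrophage markers, 5 were tested, 1 was higher in DEX, 2 were lower and 2 did not pass. All 10 proliferation markers fell, with sums of 24.5 to 42.2 CPM in DEX and 241 to 248 CPM in control. Their part in the changes of the C/EBP and lipid genes was not tested.

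Ginsenoside Rc moved 0 of the 8 tested genes past the threshold at either dose, with or without dexamethasone, in edgeR or in DESeq2. The share of all genes that passed was small as well, at 0.0259% for DEX_gRc10 against DEX, 0.369% for DEX_gRc20 against DEX, 0.00648% for gRc10 against control and 0.104% for gRc20 against control. Under dexamethasone Cebpa averaged 66.8 ± 2.12, 64.1 ± 3.35 and 65.9 ± 5.17 CPM at 0, 10 and 20 µM ginsenoside Rc (SD, n = 3 each). The log2 differences from DEX had 95% intervals of -0.20 to 0.08 at 10 µM and -0.15 to 0.12 at 20 µM. Cebpd averaged 44.4 ± 1.94, 45.9 ± 4.12 and 45.1 ± 2.88 CPM in the same order of doses, with intervals of -0.12 to 0.22 and -0.15 to 0.20. For Cebpb the intervals were far wider, at -0.40 to 0.64 for DEX_gRc10 and -0.46 to 0.57 for DEX_gRc20, so changes of that size in either direction were not detectable. Pparg was higher by 0.15 at 10 µM and 0.14 at 20 µM on the log2 scale, with intervals of -0.08 to 0.39 and -0.09 to 0.38. Cd36 averaged 63.2 ± 7.27, 66.7 ± 4.13 and 68.7 ± 3.99 CPM over the doses, and Dgat2 5.76 ± 0.509, 5.64 ± 0.637 and 5.55 ± 0.236 CPM, in each case with overlapping libraries.

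Without dexamethasone the nearest value to a change was that of Cebpg, which had 31.6, 27.0 and 30.6 CPM in gRc20, against 33.9, 34.5 and 35.1 CPM in control. The libraries did not overlap, and the log2 fold change was -0.21 ± 0.07, with an unadjusted p of 0.00568 and an adjusted p of 0.328 in edgeR. Replicate 2, the library that stood apart, was the lowest of the 3, and without it the other libraries of gRc20 still gave a lower value, with a fold change within -0.26 to -0.15 over all single libraries left out. Cebpg was the 1 gene of the 8 with an unadjusted p below 0.05 in gRc20 against control (edgeR). There were 0 in the other 3 ginsenoside comparisons. Of all 15436 genes tested, 1434 were below that value in gRc20 against control. There were 392 in gRc10 against control, 594 in DEX_gRc10 against DEX and 1351 in DEX_gRc20 against DEX. Cebpa averaged 13.2 ± 0.859, 13.6 ± 1.1 and 13.2 ± 0.479 CPM at 0, 10 and 20 µM, and Cebpd 11.8 ± 0.74, 11.4 ± 0.719 and 12.1 ± 1.66 CPM. Fabp4, at 1, 3 and 5 counts over the 3 libraries of control, gRc10 and gRc20, was too low to compare.

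**Figure D4:**
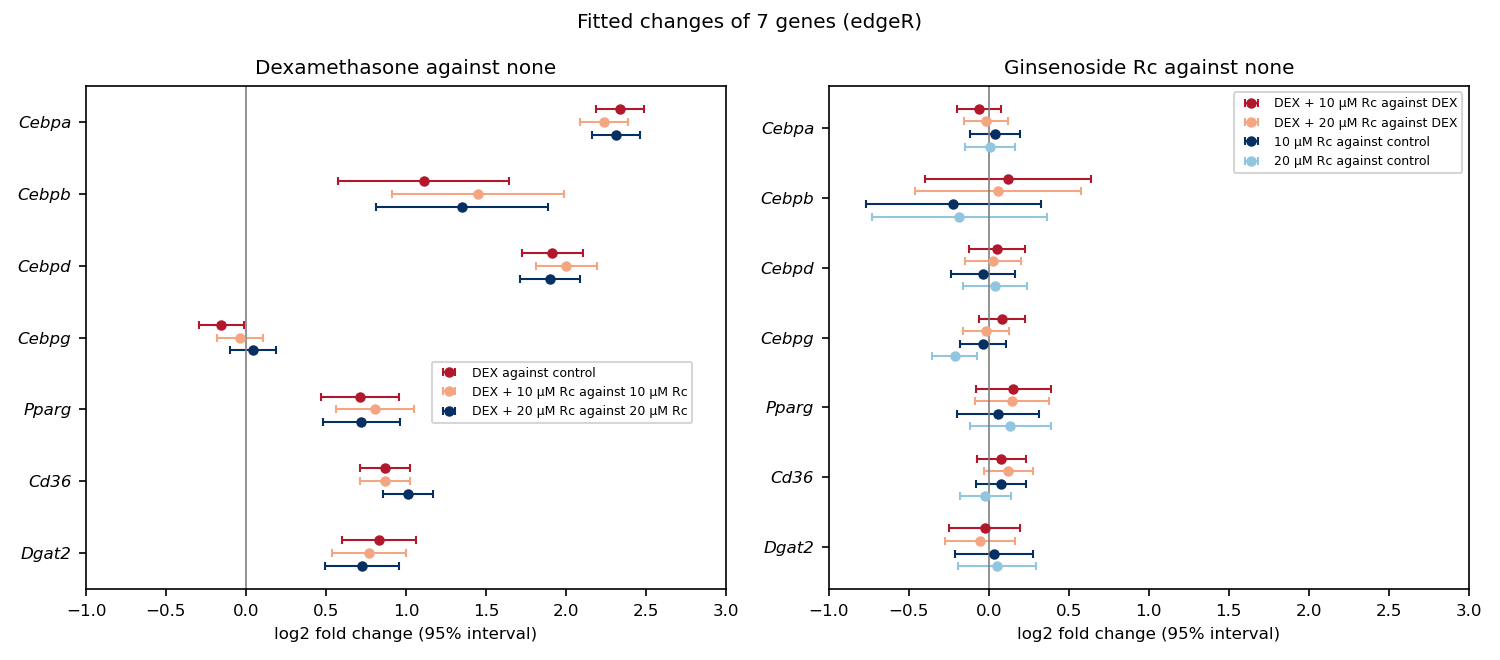
Fitted log2 fold change with its 95% interval (x axis) for 7 of the 8 tested genes (y axis), for dexamethasone against none at 3 doses of ginsenoside Rc (left) and for ginsenoside Rc against none (right); Fabp4 is left out because of its few counts without dexamethasone. The 3 dexamethasone intervals of each gene overlap one another, those of Cebpa lie above 2, and all but 1 of the intervals for ginsenoside Rc include 0, the exception being Cebpg in gRc20 against control.

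Whether ginsenoside Rc changed the size of the dexamethasone response was tested as an interaction, (DEX_gRc10 minus gRc10) minus (DEX minus control), and likewise at 20 µM. Ginsenoside Rc was given for 12 h before dexamethasone and for 36 h without it. The interaction cannot separate such a difference in exposure from a changed response. None of the 8 genes passed, with a lowest adjusted p of 0.885 (edgeR), and none had an unadjusted p below 0.05. Over all genes 0% passed at both doses, with 327 genes at 10 µM and 816 at 20 µM below an unadjusted p of 0.05, and DESeq2 called 0 and 1. The interaction of Cebpa was -0.10 (interval -0.31 to 0.11) at 10 µM and -0.02 (interval -0.23 to 0.18) at 20 µM, beside a dexamethasone response of 2.34. That of Cebpb was 0.34 (interval -0.41 to 1.09) at 10 µM and 0.24 (interval -0.51 to 0.99) at 20 µM. That of Cebpg was 0.12 at 10 µM and 0.20 at 20 µM, the value at 20 µM being the nearest of the 8 genes to the threshold at an unadjusted p of 0.0558.

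Other bZIP genes and regulators of fat cell formation gave the setting in which these genes moved. These lists, and those of effector genes and cell markers, were chosen with earlier results of these data known. Their counts are therefore descriptions. Of 13 listed relatives and partners of the C/EBP proteins, 11 were tested and all 11 passed in DEX against control. Of these, 5 were higher and 6 were lower, beside 43.8% of all genes passing, 20.6% as higher and 23.2% as lower. The median log2 fold change was -0.20, beside -0.01 over all genes. Nfil3, a bZIP repressor, was higher by 0.80, and Fos and Jun, which form AP-1, by 0.61 and 0.22. Ddit3, which encodes CHOP, an inhibitory dimer partner of C/EBP proteins, fell by 0.50, with 10.4 ± 0.55 CPM in DEX and 14.8 ± 1.22 CPM in control (SD, n = 3 each). Atf4, a stress response factor, and Junb, of AP-1, fell by 0.40 and 0.42. The adjusted p-values of these 6 genes were at or below 0.00564 (edgeR). Cebpe, the granulocyte member of the family, had at most 3 counts in every library.

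Regulators of either sign were split, beside 20.6% higher and 23.2% lower over all genes. Of 36 genes listed as promoting fat cell formation, 34 were tested, 13 were higher in DEX, 6 were lower and 15 did not pass (median log2 fold change 0.11). Klf15, a direct glucocorticoid target, was at 11.1 ± 0.423 CPM in DEX and 0.284 ± 0.0416 CPM in control (SD, n = 3 each), and Klf9 and Rxra, the gene of PPARγ's dimer partner, were higher by 1.47 and 0.40. Bmp4, Egr2 and Srebf1 fell by 1.41, 1.31 and 0.37 (adjusted p at or below 1.7e-06 for these 6 genes, edgeR). Of 39 genes listed as opposing it, 36 were tested, 9 were higher, 14 were lower and 13 did not pass (median -0.10). Tsc22d3, which encodes the glucocorticoid-induced leucine zipper protein GILZ, was higher by 3.26, Klf2 by 1.16 and Twist2 by 1.03, whereas Hes1, Id2 and Runx2 fell by 1.13, 0.82 and 0.67 (adjusted p at or below 4.53e-06 for these 6 genes, edgeR). Wnt10a, which opposes fat cell formation, was the single gene of the regulator and effector lists to pass in a ginsenoside comparison, at 60.7 ± 3.22 CPM in DEX_gRc20 and 76.2 ± 6.47 CPM in DEX (log2 fold change -0.33, adjusted p = 0.0237, edgeR). Among the cell markers, the myosin gene Myh8 was higher in gRc10 and gRc20 than in control by 0.40 and 0.51, and higher in DEX_gRc20 than in DEX by 0.33 (adjusted p = 0.0107, 0.000335 and 0.012, edgeR). Actn2, a Z-disc gene, was higher in DEX_gRc20 than in DEX by 0.25 (adjusted p = 0.0295, edgeR).

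Of 51 listed lipid and fat cell effector genes, 38 were tested, and 22 were higher in DEX, 8 were lower and 8 did not pass, beside 20.6% higher and 23.2% lower over all genes, with a median log2 fold change of 0.25. Plin4, a lipid droplet coat gene, was at 41.4 ± 1.76 CPM in DEX and 1.12 ± 0.128 CPM in control (SD, n = 3 each). Acsl1, which activates fatty acids, and Agpat3, which acylates lysophosphatidic acid, were higher by 0.99 and 0.63. G0s2, which encodes an inhibitor of the lipase ATGL, had 8.55 ± 0.845 CPM in DEX and 43.1 ± 2.88 CPM in control, and Angptl4 and Cav1 fell by 0.71 and 1.44 (adjusted p at or below 3.55e-07 for these 6 genes, edgeR). Of the 51, 9 (Plin1, Cidec, Retn, Lep, Adig, Aqp7, Pck1, Thrsp and Ucp1) had at most 3 counts in every library.

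**Figure D5:**
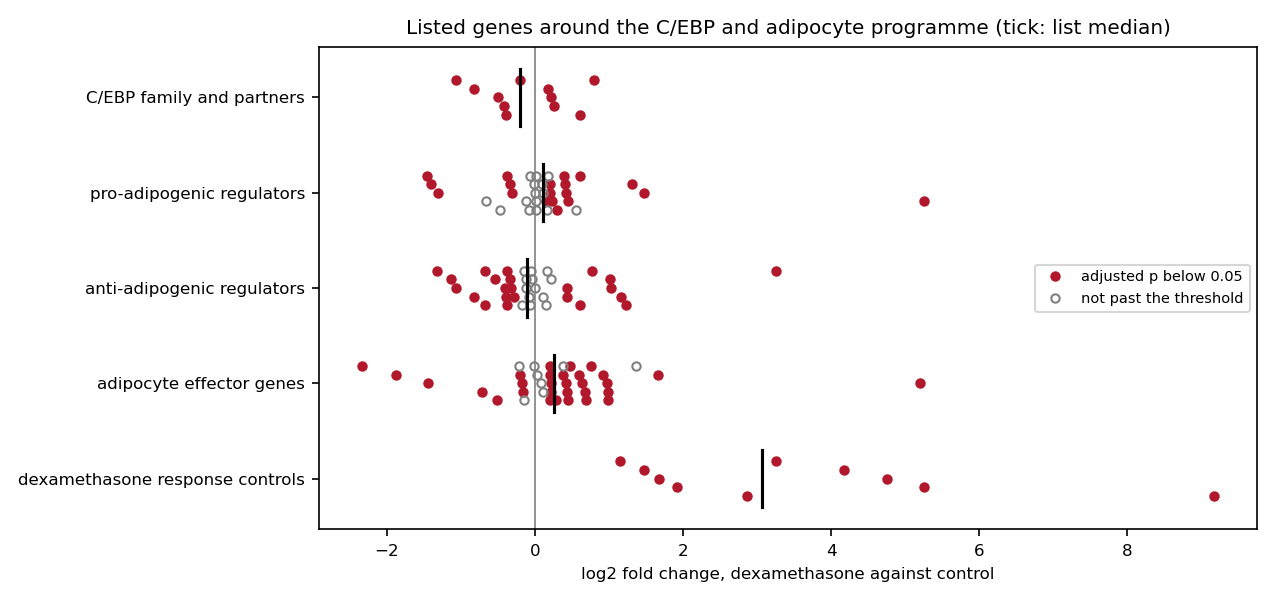
Log2 fold change of DEX over control (x axis) for the tested genes of 5 lists (y axis). Filled points passed at an adjusted p below 0.05, open points did not, vertical offsets only separate the points, and the tick is the list's median. The medians are -0.20, 0.11, -0.10, 0.25 and 3.06 from top to bottom.

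The genes whose log2 CPM over the 18 libraries ran most closely with each of the 8 were named as a description, since all points share the split by dexamethasone. Among 11786 genes compared, those closest to Cebpa were Fkbp5, Tsc22d3 and Mcf2l (Pearson r = 0.998 for each), and 809 genes had an r above 0.95 with it. Ctla2a, Tsc22d3 and Sgk1 were closest to Cebpd (r = 0.996, 0.996 and 0.995). Fabp4 ran closest with Scara5 (r = 0.995), and Cebpd, another of the 10 genes, came next. Cebpb had few close companions, with Map2 (r = 0.967) and Glrx (r = 0.954) the 2 genes above 0.95. For Cebpg none reached 0.95, and the closest was Dse (r = 0.866). Pparg ran with Pmp22 (r = 0.979), Cd36 with Art1 (r = 0.995) and Dgat2 with Abcf2 (r = 0.975).

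Genes beside these loci on the chromosome gave mixed values. Near Pparg on chromosome 6, Timp4, at 108.7 kb, was higher by 3.31 in DEX (adjusted p = 8.04e-12, edgeR). Near the silent Adipoq on chromosome 16, Kng2, at 117.1 kb, was higher by 4.02, and Eif4a2, at 32.4 kb, did not pass (0.14, adjusted p = 0.199). Next to Dgat2 on chromosome 7, Mogat2, a gene of the same acyltransferase family at 36.4 kb, fell by 1.88 on the log2 scale (adjusted p = 0.000142, edgeR). The neighbours of Pparg, Adipoq and Dgat2 were chosen after their values were seen.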

How the data were processed

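RNA was measured in 18 poly-A libraries of C2C12 myotubes, 3 in each of 6 groups named in the labels. Per the labels, libraries were directional and read as 100-base pairs. GRCm38/mm10, STAR 2.7.3a and RSEM 1.3.3, with Trim Galore 0.6.5 and FastQC 0.11.9, are listed in the submitters' processing notes. Which annotation release, filters or strand setting were used is not given in the sources used here. The authors deposited expected counts per Ensembl gene, of which 9.27% were not whole; they were rounded to whole numbers. Library totals were 32350889 to 45388609 counts, and intervals from counts cover counting error only.

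Gene symbols came from a reference list of gene names and, where that had none, from GENCODE M21 (GRCm38). Together these named 48349 of 48795 rows. Coordinates came from GENCODE M21. All 18 libraries were fitted together with 1 mean per group in edgeR 4.0.16 (TMM, default low-count filter, robust quasi-likelihood test, R 4.3.3), with Benjamini-Hochberg adjustment over 15436 genes and a threshold of 0.05; DESeq2 1.42.0 was an alternative. Standard errors were derived from the test statistic. The steps were tested on simulated data. Alternatives were other scaling, no filter, fitting the compared groups alone, a replicate block, and leaving out each library; leaving replicate 2 of gRc20 out of the other comparisons was added after seeing the data. Levels between genes were divided by the length of the merged exons. Named list genes are the 3 with the smallest adjusted p in each direction in DEX against control with an average log2 CPM no lower than 1, and every list gene that passed in a ginsenoside comparison; likeness names up to 3 genes by Pearson r of log2 CPM. The 10 genes, the lists and the motifs were chosen with earlier results of these data known.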

Additional observations from a re-analysis of the deposited data

How the results depend on the processing

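The 7 genes higher with dexamethasone kept that call in 266 of 266 recomputed values over the 3 dexamethasone comparisons, with a highest adjusted p of 0.0141. Fabp4 is among the 7, and it passed the filter only through the libraries with dexamethasone, so its calls are a description. The count called in DEX against control was 7 or 8, the eighth being Cebpg under the settings named with its values. The count was 0 for ginsenoside Rc in all alternatives run. Depth limits Fabp4, Adipoq and Cfd, and replicate spread limits Cebpb.

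Replicate numbers did not pair the libraries: same-numbered deviations correlated at -0.196 to 0.15, and 14 of 42 library comparisons were closest to their own number. With a replicate block the number of the genes called was 7 in each dexamethasone comparison and 0 elsewhere, and Cebpb was 1.10 in DEX over control; over all genes DEX_gRc10 against DEX went to 1 gene.

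Counts over all genes varied widely for ginsenoside Rc. Against 1 gene for gRc10 over control there were 2 without the filter, 5 in DESeq2 and 8 with the compared groups alone, and 0 to 3 with a library left out. Against 16 for gRc20 over control there were 28, 107 and 0, and 5 to 44 with a library left out. Against 4 for DEX_gRc10 over DEX there were 17 in DESeq2 and 1 with the compared groups alone, and 0 to 15 with a library left out. Against 57 for DEX_gRc20 over DEX there were 95 without the filter and 258 in DESeq2, and 6 to 341 with a library left out. The genes higher in DEX_gRc20 over gRc20 numbered 2270 with the compared groups alone, against 3631. The interaction at 20 µM gave 1 gene without the filter and 1 in DESeq2, and 0 to 2 with a library left out. The cause was not tested.

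Some values that passed no test changed sign, and not all were near 0. With all libraries, Cebpb was at -0.18 and Pparg at 0.13 in gRc20 over control. Cebpb in DEX_gRc10 over DEX was at 0.12, and at -0.19 without replicate 3 of DEX_gRc10. Without composition scaling the log2 fold change was -0.018 for Cebpa in gRc20 over control, -0.0085 for Cebpg in DEX_gRc20 over gRc20 and 0.0005 for the interaction of Cebpd at 20 µM. With a library left out, gRc10 over control ranged from -0.031 to 0.090 for Cebpa and -0.036 to 0.11 for Dgat2. In gRc20 over control the range was -0.037 to 0.056 for Cebpa, -0.46 to 0.0030 for Cebpb, -0.058 to 0.14 for Cebpd, -0.031 to 0.25 for Pparg, -0.058 to 0.018 for Cd36 and -0.020 to 0.13 for Dgat2; the negative Pparg value came without replicate 2 of gRc20. In DEX_gRc10 over DEX it was -0.19 to 0.28 for Cebpb, -0.026 to 0.089 for Cebpd and -0.094 to 0.061 for Dgat2. In DEX_gRc20 over DEX it was -0.069 to 0.043 for Cebpa, -0.15 to 0.16 for Cebpb, -0.011 to 0.079 for Cebpd, -0.054 to 0.033 for Cebpg and -0.12 to 0.0027 for Dgat2. Cebpg ranged from -0.069 to 0.034 in DEX_gRc10 over gRc10 and from -0.019 to 0.092 in DEX_gRc20 over gRc20. The interaction at 10 µM ranged from -0.046 to 0.10 for Cd36 and -0.13 to 0.028 for Dgat2, and that at 20 µM from -0.075 to 0.036 for Cebpa, -0.11 to 0.083 for Cebpd and -0.10 to 0.18 for Pparg.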
